A study of Homo sapiens with 27 samples.

Results

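Mitochondrial respiration passes electrons from succinate to oxygen and uses the resulting proton gradient to make ATP. Complex II (succinate dehydrogenase) oxidises succinate to fumarate and hands the electrons to ubiquinone, complex III (ubiquinol-cytochrome c reductase) carries them on to cytochrome c and pumps protons, and complex V (ATP synthase) lets the protons flow back through a membrane ring to drive ATP synthesis. Melanoma cells can rely on respiration as well as glycolysis, and succinate dehydrogenase belongs to the citric acid cycle at the same time. SIRT5, the gene knocked down here, encodes a sirtuin that strips acyl groups such as succinyl and malonyl off lysines, and proteins of the respiratory chain are among its known substrates.

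The results concern 36 nuclear genes that encode subunits, assembly factors and an inhibitor of complexes II, III and V, taken by symbol from a list, out of 26004 genes in the table. The list is not complete, and other subunits and assembly factors of complexes III and V were kept in separate lists. They comprise 4 subunits and 4 assembly factors of complex II, 9 subunits and 3 assembly factors of complex III, and, for complex V, 5 subunits of the catalytic F1 head, 10 of the stalk and membrane part and 1 inhibitor. All 36 were found, each on 1 row, and all passed the filter in each line (FPKM, fragments counted per length of transcript and depth of library, of at least 1 in 3 libraries). SDHA in SKMEL2 passed only through the KD1 libraries, where it was highest. A further 3 subunits are encoded in the mitochondrial genome and are described beside them.

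The RNA came from human melanoma cells of the lines A2058, A375 and SKMEL2, bought from a cell bank and grown as its directions say. The NT control cells carried an shRNA in the pLKO.1 vector that targets Gaussia luciferase, absent from human cells, and the KD1 and KD2 cells each carried a different shRNA against SIRT5. Every group, controls included, was infected with lentivirus, selected in puromycin at 1 µg/ml and harvested 96 h after transduction. Each line had 3 libraries per arm, 27 in all, from 3 wells, so a p-value here rests on how far wells differ, a spread that may be technical. Which of the labels' hairpin numbers is KD1 was not stated.

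Reads assigned to genes ran from 7.10 to 54.5 M per library, with A375 the shallowest at 7.10 to 23.9 M. The FPKM of all genes of a library summed to 276729 to 418033 in A375, against 292832 to 332754 in the other lines, and 4 of the 6 A375 knockdown libraries (KD1 replicates 1 and 3, KD2 replicates 1 and 2) lay above 340000. SIRT5 averaged 2.11 ± 0.282, 1.24 ± 0.109 and 3.33 ± 0.377 FPKM (SD, n = 3) in the A2058, A375 and SKMEL2 controls, and every knockdown library lay below every control library of its line. Of the melanocyte markers, SOX10 was present in each line, whereas PMEL, MLANA, TYR, TYRP1 and DCT were near 0 in A375, with control means of 0.0100 to 0.836 FPKM. Of the blood cell markers, PTPRC and CD3E did not exceed 0.151 FPKM in any library, whereas CD14 averaged 3.58 ± 0.146 FPKM in the SKMEL2 controls, 6.09 ± 0.394 in KD1 and 11.3 ± 1.05 in KD2, a limma change of 1.11 ± 0.06 (adjusted p = 4.8e-07) on log2(FPKM + 0.5). The summed FPKM of these 3 markers was 3.66 to 3.86 in the SKMEL2 controls and 5.89 to 12.6 in its knockdown libraries, and at most 1.12 in A2058 and 0.545 in A375. The summed FPKM of 8 melanocyte markers was lower in all knockdown than in all control libraries in A2058 (659.8 to 803 against 884 to 910.3) and SKMEL2 (776 to 1075 against 1742 to 1946). In A375 the sum was higher in all knockdown libraries (248 to 406 against 211 to 231), and SOX10 made up 188 of its control mean of 223 FPKM. By limma at an adjusted p below 0.05, 3 of the 8 rose and 5 fell in A2058, beside 34.6% and 34.7% of all genes. None rose and 7 fell in SKMEL2 (32.9% and 32.4%). Only 4 were tested in A375, of which 3 rose and 1 fell (26.2% and 21.7%). The part of these marker sums in the results below was not tested, and in bulk RNA a change in the mix of cells and a change of RNA per cell cannot be told apart.

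In the control cells the 36 genes covered a wide range of FPKM, with the beta subunit of the ATP synthase at the top and an assembly factor or the flavoprotein of succinate dehydrogenase at the bottom. FPKM is scaled to the length taken for each gene, so the order of the genes rests on those lengths. In A2058 control replicate 1, ATP5F1A had 22367 reads and 58.4 FPKM, against 23027 reads and 293 FPKM of ATP5F1B. ATP5F1B, the beta subunit that carries the catalytic sites, was the highest of the 36 in each line, with control FPKM of 293, 281 and 296 in A2058, 393, 360.4 and 452 in A375 and 199, 209 and 218 in SKMEL2. UQCRH, the hinge protein of complex III, was the next highest in each line, averaging 170.1 ± 7.24, 210.5 ± 23.8 and 142 ± 6.62 FPKM in the same order. The lowest member was SDHAF4, an assembly factor that binds flavinylated SDHA, in A2058 (5.69 ± 0.596) and A375 (1.43 ± 0.327), and SDHA in SKMEL2 (0.825 ± 0.123).

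The lines differed in these control levels, among them those of complex II. Changes are differences on log2(FPKM + 0.5), given with the SE from limma, and a gene counts as called at a Benjamini-Hochberg adjusted p below 0.05 over all genes tested. SDHA, the subunit that oxidises succinate, stood at 6.88, 6.45 and 6.79 FPKM in A2058, 2.57, 2.47 and 3.15 in A375 and 0.733, 0.777 and 0.965 in SKMEL2, and no library of one line overlapped those of another. It was lower in SKMEL2 than in A2058 by 2.45 ± 0.10 (adjusted p = 1.2e-15) and than in A375 by 1.28 ± 0.10 (adjusted p = 9.5e-11). The SDHA pseudogenes SDHAP1 and SDHAP3 are listed separately and share sequence with it, so reads could have been split between them, and the SDHA level is uncertain. SDHD, a membrane anchor of complex II, followed the same order of lines, with means of 34.4 ± 1.15, 19.6 ± 1.05 and 10.7 ± 0.0589 FPKM. SDHC, the other anchor, had control means of 32.6 ± 1.27 in A2058 and 32.6 ± 2.46 in A375, a log2 difference of 0.00 ± 0.10 (adjusted p = 1.0). Among the assembly factors of complex II, SDHAF4 was lower in A375 than in A2058 by 1.70 ± 0.13 (adjusted p = 9.6e-11), and SDHAF2, which helps attach the flavin to SDHA, was higher there by 0.89 ± 0.15 (adjusted p = 2.2e-05). ATP5F1D, the delta subunit of the F1 head, was lowest in A2058 at 13.4, 12.2 and 14.4 FPKM, and was higher in A375 by 1.43 ± 0.11 (adjusted p = 1.2e-10) and in SKMEL2 by 0.93 ± 0.11 (adjusted p = 1.3e-07). UQCR11, a small subunit of complex III, was also higher in A375 and SKMEL2 than in A2058, by 0.86 ± 0.13 and 0.83 ± 0.13 (adjusted p = 4.8e-06 and 8.4e-06). ATP5PB, a subunit of the peripheral stalk, was higher in SKMEL2 than in A375 by 0.76 ± 0.09 (adjusted p = 5.9e-08), while UQCRC2, a core protein of complex III, was lower in A375 than in A2058 by 1.20 ± 0.06 (adjusted p = 9.7e-14).

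Over the 36 genes, 10 were higher and 19 lower in A375 than in A2058 controls, beside 35.6% and 35.1% of all genes tested. SKMEL2 had 5 higher and 24 lower members than A2058, beside 37.2% and 32% of all genes, and 7 higher and 17 lower members than A375, beside 38.8% and 34.2%.

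**Figure D1:**
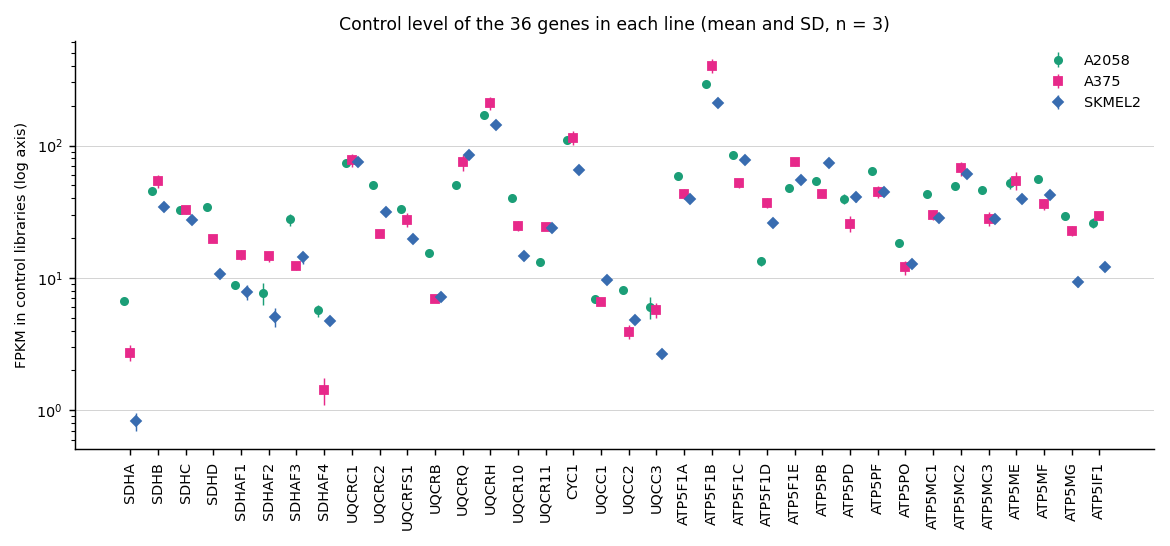
Mean FPKM of each of the 36 genes in the control libraries of A2058 (circles), A375 (squares) and SKMEL2 (diamonds), on a log axis, with the SD of n = 3 libraries as bars. ATP5F1B is highest in each line, and SDHA runs from 6.71 FPKM in A2058 to 0.825 in SKMEL2.

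With SIRT5 knocked down, the 36 genes moved in different directions in the 3 lines, and by modest amounts. In A2058, 5 of the 36 rose and 13 fell against 34.6% and 34.7% of all genes tested (69.3% called), with the mean of both knockdown arms set against the controls. The p-values of this mean rest on the spread within arms, so a member can be called although its hairpins disagree. In A375, 13 rose and 1 fell, beside 26.2% and 21.7% of all genes (47.9% called). In SKMEL2, 5 rose and 16 fell, beside 32.9% and 32.4% (65.3% called). The median change of the 36 was -0.05 in A2058, 0.30 in A375 and -0.12 in SKMEL2, with a median of all genes of -0.01, 0.02 and 0.00. No member changed 2-fold in the mean of both arms, whereas 7.08%, 9.03% and 3.51% of all genes did. Of the 36, 11 lay above 0 in A2058, 32 in A375 and 11 in SKMEL2. In A2058 the split depended on the scaling, with 9 rising and 13 falling members when each library was centred on its median, and 5 rising and 21 falling, with a median of -0.17, after quantile normalization. A fit over all 27 libraries gave 4 rising and 8 falling in A2058, 23 and 1 in A375, and 2 and 9 in SKMEL2. That fit called 7921, 9378 and 6659 of 16162 genes in A2058, A375 and SKMEL2. The single-line fits called 8873 of 12797, 6054 of 12629 and 9070 of 13899.

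For the mean effect over the 3 lines, 13 members rose and 7 fell (32% and 32% of all genes, 64.1% called), but after quantile normalization 9 rose and 14 fell, and with centring on medians 17 rose and 5 fell. The knockdown effect differed between lines for 29 of the 36 genes by the F-test over all 27 libraries, beside 61.1% of all genes. Without the 4 A375 knockdown libraries with the high FPKM sums, the median of the 36 in A375 was 0.09. This left a single library in KD1 and in KD2 of A375, so only sizes of change are given for this setting in the Results. Removing the trend of each library with gene length gave 14 rising and 1 falling member in A375 and a median of 0.14, and quantile normalization 11 and 1, also with a median of 0.14. The part of the FPKM sums in the A375 result was not tested beyond these values. A fit over all 27 libraries, which shares 1 spread among the lines, did not call SDHD, UQCRC1, UQCC3, ATP5F1A and ATP5F1D in SKMEL2 or UQCRC1 and ATP5PD in A2058, at adjusted p = 0.066 to 0.37.

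The summed FPKM of the 36 genes also moved differently in the 3 lines. In A2058 it was 1684 to 1768 in the controls, 1805 to 1899.7 in KD1 and 1515 to 1613 in KD2, so KD1 lay above the controls and KD2 below. In A375 it was 1598 to 1944 in the controls, 2069 to 2452 in KD1 and 2040.1 to 2783 in KD2, both arms being above the controls. In SKMEL2 it was 1355 to 1413 in the controls, 1285 to 1393 in KD1, which overlapped them, and 1319.6 to 1345 in KD2, which lay below. As a share of the FPKM sum of each library, A2058 KD1 no longer lay above the controls, at 0.578% ± 0.00631 against 0.579% ± 0.0220 (SD, n = 3), and KD2 was below both at 0.505% ± 0.0229. The A375 shares of controls and KD1 overlapped at 0.602% ± 0.0261 and 0.612% ± 0.0236 (SD, n = 3), and KD2 was above both at 0.684% ± 0.0344. In SKMEL2 the share was higher in KD1 (0.443% ± 0.0114) and KD2 (0.435% ± 0.00418) than in the controls (0.419% ± 0.00695) although more members fell than rose.

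**Figure D2:**
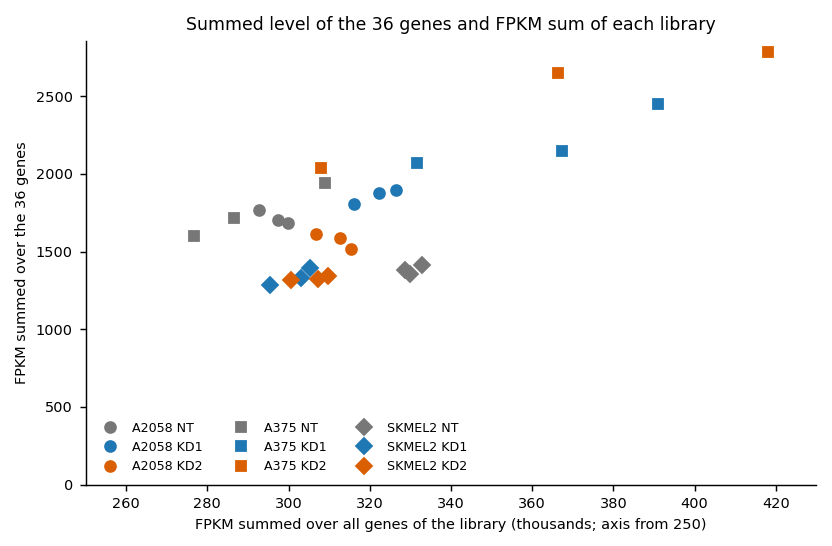
Summed FPKM of the 36 genes in each of the 27 libraries against the FPKM summed over all genes of that library, the latter on an axis that does not start at 0. Shapes mark the lines and colours the arms. The A375 knockdown libraries reach 418033 and 2783, beyond the range of the other lines.

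Of the 36, 3 rose in all 3 lines, beside 10.7% of all genes, and none fell in all 3, beside 10.5%. They were SDHC, ATP5F1B and UQCC2. SDHC, which anchors succinate dehydrogenase in the inner membrane, lies on chromosome 1 (161314381 to 161363206, plus strand, GRCh38) and had A2058 FPKM of 34.0, 32.1 and 31.6 in the controls, 45.1, 43.1 and 44.8 in KD1 and 38.5, 39.1 and 41.0 in KD2, and both arms lay above the controls. In A375 the SDHC values were 32.0, 30.6 and 35.4 in the controls, 54.2, 54.7 and 68.9 in KD1 and 59.5, 54.2 and 41.0 in KD2, again without overlap. In SKMEL2 they were 29.0, 27.5 and 26.0 in the controls, 35.4, 35.0 and 34.8 in KD1 and 30.0, 30.0 and 27.7 in KD2, and only KD1 cleared the controls. The SDHC rise was 0.36 ± 0.04 (adjusted p = 9.5e-06) in A2058, 0.74 ± 0.14 (adjusted p = 0.0020) in A375 and 0.22 ± 0.04 (adjusted p = 0.0010) in SKMEL2, the last at adjusted p = 0.0507 in a fit over all 27 libraries, and its size differed between lines (adjusted p = 0.0028).

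ATP5F1B rose with both hairpins in every line, the only member to do so (4.13% of all genes rose in all 6 hairpin contrasts, 2.58% fell in all 6, and no member did the latter). It lies on chromosome 12 (56638175 to 56645984, minus strand, GRCh38). Its FPKM in A2058 was 293, 281 and 296 in the controls, 376, 372 and 392 in KD1 and 362, 366 and 336 in KD2. In A375 it was 393, 360.4 and 452 in the controls, 564, 536 and 641 in KD1 and 751, 678 and 502 in KD2, and in SKMEL2 199, 209 and 218 in the controls, 269.7, 253 and 262 in KD1 and 279, 286 and 277 in KD2. No knockdown library of any line reached down to the controls. The change was 0.34 ± 0.04 (adjusted p = 1.5e-05) in A2058, 0.60 ± 0.15 (adjusted p = 0.0087) in A375 and 0.38 ± 0.04 (adjusted p = 1.4e-05) in SKMEL2, and the F-test between lines did not pass (adjusted p = 0.15). The A375 call was lost without control replicate 2 (0.52, adjusted p = 0.052). Without the 4 libraries with high FPKM sums, which left a single library per knockdown arm, the A375 change was 0.37. The authors' deposited table gave ATP5F1B adjusted p = 2.2e-10 over all lines, with a log2 change of 0.44. Over all lines it also called SDHC and UQCC2 (adjusted p = 1.3e-06 and 0.0041). The authors' single-line tables did not call SDHC in SKMEL2 (adjusted p = 0.24). They called UQCC2 in no line (adjusted p = 0.37, 0.075 and 0.14 in A2058, A375 and SKMEL2).

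UQCC2 encodes a factor that assists the synthesis and assembly of cytochrome b, the mitochondrially encoded subunit of complex III. Its FPKM in A2058 was 8.40, 7.49 and 8.36 in the controls, 10.2, 10.01 and 9.63 in KD1 and 9.08, 7.79 and 8.41 in KD2. In A375 it was 3.81, 3.51 and 4.46 in the controls, 4.55, 4.29 and 5.45 in KD1 and 7.004, 7.37 and 5.59 in KD2. In SKMEL2 the values were 4.65, 5.01 and 4.70 in the controls, 5.44, 5.30 and 5.57 in KD1 and 5.27, 5.44 and 5.44 in KD2, and here both arms lay above the controls, as only KD1 did in A2058 and only KD2 in A375. UQCC2 rose by 0.17 ± 0.06 (adjusted p = 0.020), 0.47 ± 0.13 (adjusted p = 0.013) and 0.16 ± 0.04 (adjusted p = 0.0040) in A2058, A375 and SKMEL2. The A2058 call was lost without control replicate 2 (0.12, adjusted p = 0.099). The A375 call was lost without control replicate 1 (0.45, adjusted p = 0.055) and without control replicate 2 (0.40, adjusted p = 0.071). The A375 change was 0.29 without the 4 libraries with high FPKM sums. A fit over all 27 libraries gave adjusted p = 0.091 in A2058 and 0.12 in SKMEL2.

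**Figure D3:**
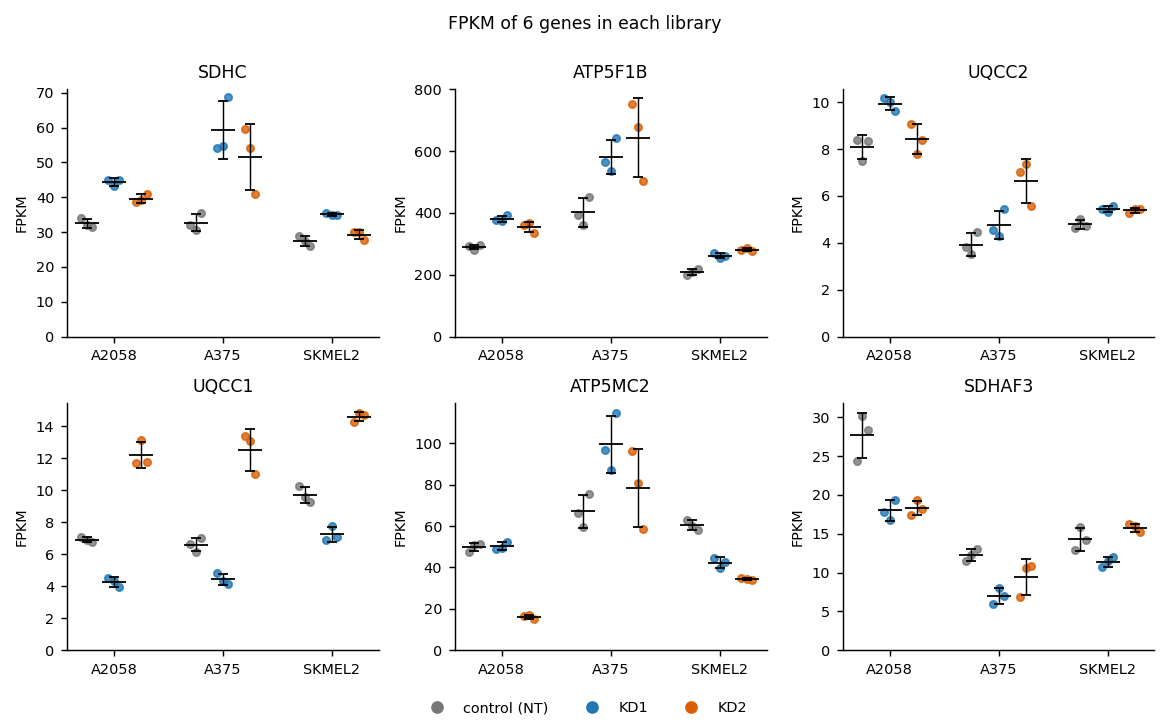
FPKM of SDHC, ATP5F1B, UQCC2, UQCC1, ATP5MC2 and SDHAF3 in each library (points), with the mean and SD of n = 3 libraries per arm in black; grey is control, blue KD1 and orange KD2. UQCC1 falls below the controls in KD1 and rises above them in KD2 in each line, and ATP5MC2 drops in A2058 KD2 to 16.2 FPKM.

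Promoter sequences are shown for UQCC1, UQCC2 and SDHD, as a gene that moved with the hairpin, a gene that rose in each line and a gene that was low in KD2 of A2058 and SKMEL2. RefSeq promoters of GRCh38.p14, 250 bases before to 50 after the start, were on hand for 28 of the 36 genes; the others are SDHC, CYC1, ATP5MC3, ATP5MF, ATP5F1B, UQCRB, UQCC3 and ATP5F1D. Both strands were searched for CGCANGCG, the core of the motif of NRF1, a factor known for driving respiratory genes, for CCGGAAG, an ETS family motif, and for AAGATGGC, a YY1 motif, whose first letters can overlap the end of CCGGAAG. CGCANGCG was in a promoter of 15 of the 28 genes and of 12.01% of all 27305 genes with a RefSeq promoter, CCGGAAG in 12 and 12.2%, and AAGATGGC in 6 and 3.52%. Those 27305 genes were not filtered for expression, unlike the members, and a share among expressed genes was not computed. The capitals mark these matches, in either orientation, in the strand of the gene.
UQCC1 (chr20:35411924-35412223, minus strand, 2 NRF1 matches): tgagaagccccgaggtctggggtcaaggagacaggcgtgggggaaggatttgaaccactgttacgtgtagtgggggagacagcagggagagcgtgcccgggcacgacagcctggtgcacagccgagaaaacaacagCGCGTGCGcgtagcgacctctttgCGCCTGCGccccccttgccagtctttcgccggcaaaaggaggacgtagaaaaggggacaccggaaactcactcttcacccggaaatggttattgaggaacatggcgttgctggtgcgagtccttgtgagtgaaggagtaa
UQCC2 (chr6:33711651-33711950, minus strand, 1 NRF1 and 1 YY1 match): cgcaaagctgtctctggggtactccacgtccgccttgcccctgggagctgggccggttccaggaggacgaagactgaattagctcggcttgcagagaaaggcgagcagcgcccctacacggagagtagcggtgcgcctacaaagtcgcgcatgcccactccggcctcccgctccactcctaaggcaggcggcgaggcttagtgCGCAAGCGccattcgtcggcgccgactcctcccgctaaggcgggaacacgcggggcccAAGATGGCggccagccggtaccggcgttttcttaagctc
SDHD (chr11:112086623-112086922, plus strand, 1 NRF1 and 1 ETS match): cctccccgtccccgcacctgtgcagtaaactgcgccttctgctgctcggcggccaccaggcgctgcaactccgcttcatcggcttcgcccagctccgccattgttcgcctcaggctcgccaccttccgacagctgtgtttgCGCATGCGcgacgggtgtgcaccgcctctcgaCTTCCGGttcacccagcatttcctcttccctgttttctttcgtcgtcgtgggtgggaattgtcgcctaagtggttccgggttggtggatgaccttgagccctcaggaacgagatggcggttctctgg
Of the 15 members with the NRF1 match and the 13 without it, 5 and 4 rose in A375, 5 and 7 fell in SKMEL2, and 7 and 4 fell in A2058. A match is a description of the letters and says nothing about binding.

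The 4 subunits of complex II did not move together. In the mean over lines SDHA, SDHB and SDHC rose, by 0.27, 0.19 and 0.44, and SDHD fell by 0.16. SDHA in A375 went from 2.57, 2.47 and 3.15 FPKM in the controls to 4.71, 4.24 and 4.62 in KD1 and 4.37, 4.58 and 3.29 in KD2, all above the controls. The rise was 0.57 ± 0.13 (adjusted p = 0.0053), and 0.40 without the 4 libraries with high FPKM sums. In A2058 the SDHA change was 0.13 ± 0.05 (adjusted p = 0.0501). SDHB, the iron-sulphur subunit, rose in SKMEL2 by 0.19 ± 0.04 (adjusted p = 0.0023), from 34.3 ± 0.909 FPKM to 42.3 ± 2.38 in KD1 and 36.7 ± 1.49 in KD2.

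SDHD, whose promoter is shown above, depended on the hairpin. Its FPKM in A2058 was 33.1, 34.5 and 35.4 in the controls, 36.8, 37.0 and 38.3 in KD1 and 24.1, 24.1 and 24.0 in KD2, so that KD1 lay above and KD2 below the controls. In SKMEL2 it was 10.6, 10.6 and 10.7 in the controls, 10.7, 10.1 and 10.2 in KD1 and 9.38, 8.24 and 8.25 in KD2, with only KD2 below. KD2 was lower than KD1 by 0.62 ± 0.04 (adjusted p = 1.4e-07) in A2058 and 0.25 ± 0.05 (adjusted p = 0.0019) in SKMEL2, and the difference in A375 was -0.35 ± 0.14 (adjusted p = 0.069). For the mean of both arms SDHD fell by 0.19 ± 0.03 (adjusted p = 0.00041) in A2058 and 0.17 ± 0.05 (adjusted p = 0.0077) in SKMEL2. These p-values leave out how far the hairpins disagree, and in A2058 the mean joins higher values in KD1 with lower values in KD2. The authors' deposited tables did not call SDHD in A2058 or SKMEL2 (adjusted p = 0.69 and 0.27).

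The 4 assembly factors of complex II went separate ways, with 1 rising and 2 falling in A2058, 1 falling in A375 and none called in SKMEL2. Of all genes, 34.6% rose and 34.7% fell in A2058, 21.7% fell in A375 and 65.3% were called in SKMEL2. SDHAF3, which helps to mature the iron-sulphur subunit, had A2058 FPKM of 24.4, 30.2 and 28.4 in the controls, 17.8, 16.8 and 19.4 in KD1 and 17.5, 19.3 and 18.2 in KD2, with both arms below the controls. In A375 its values were 11.5, 12.3 and 13.001 in the controls, 5.90, 7.99 and 7.04 in KD1 and 6.84, 10.7 and 10.8 in KD2, and again no knockdown library reached the controls. SDHAF3 fell by 0.59 ± 0.07 (adjusted p = 2.4e-05) in A2058 and 0.58 ± 0.16 (adjusted p = 0.012) in A375, where it was the only member to fall. In SKMEL2 KD1 was lower than the controls by 0.31 ± 0.07 (adjusted p = 0.0031) while KD2 gave 0.14 ± 0.07 (adjusted p = 0.11). SDHAF1, another factor of iron-sulphur maturation, fell in A2058 by 0.45 ± 0.09 (adjusted p = 0.0012), and SDHAF2 rose there by 0.35 ± 0.11 (adjusted p = 0.013), from 8.80, 5.99 and 8.22 FPKM to 15.7, 13.04 and 14.3 in KD1, with KD2 overlapping the controls at 6.16, 6.72 and 7.09. SDHAF4 in A375 stood at 1.70, 1.06 and 1.52 FPKM in the controls and 2.60, 2.51 and 1.81 in KD2, a rise of 0.55 ± 0.18 (adjusted p = 0.032) in that arm.

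Of the 9 subunits of complex III, 3 fell in A2058, 4 rose in A375 and 4 fell in SKMEL2. Of all genes, 34.7% fell in A2058, 26.2% rose in A375 and 32.4% fell in SKMEL2. Quantile normalization gave 5 falling in A2058, and centring on medians 2 rising and 3 falling there. UQCRQ, a small subunit, had the smallest p of a difference between lines among them (adjusted p = 4.8e-05). In A375 its FPKM was 76.2, 63.2 and 84.6 in the controls, 98.7, 93.7 and 114 in KD1 and 171, 148 and 108 in KD2, all knockdown libraries being above the controls. In SKMEL2 the values were 87.2, 84.7 and 82.5 in the controls, 76.3, 67.2 and 71.9 in KD1 and 78.8, 77.5 and 74.9 in KD2, all below. UQCRQ rose by 0.68 ± 0.16 (adjusted p = 0.0059) in A375 and fell by 0.19 ± 0.04 (adjusted p = 0.0027) in SKMEL2, the latter at adjusted p = 0.16 in a fit over all 27 libraries, while in A2058 the change was -0.12 ± 0.05 (adjusted p = 0.058). UQCR10, another small subunit, rose in A375 by 0.63 ± 0.14 (adjusted p = 0.0059) and had 0.11 ± 0.05 and -0.02 ± 0.09 in A2058 and SKMEL2, neither called. The A375 FPKM of UQCR10 was 24.1, 22.7 and 27.0 in the controls, 37.2, 32.7 and 41.4 in KD1 and 46.6, 43.1 and 30.6 in KD2, every knockdown library being above the controls. The A375 rise of UQCR10 was 0.36 without the 4 libraries with high FPKM sums. CYC1, the haem-bearing subunit that passes electrons to cytochrome c, also rose in A375, by 0.61 ± 0.15 (adjusted p = 0.0070), from 112, 101 and 129 FPKM to 149, 144 and 179 and 236, 193 and 157. UQCRFS1, the Rieske iron-sulphur protein, rose there by 0.38 ± 0.13 (adjusted p = 0.030).

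The core proteins and UQCR11 were low in KD2 of A2058 and SKMEL2. The FPKM of UQCRC1 in A2058 was 76.1, 70.2 and 73.3 in the controls, 80.0, 81.2 and 85.4 in KD1 and 49.0, 50.6 and 46.9 in KD2. In SKMEL2 it was 73.5, 75.05 and 75.9 in the controls, 80.2, 78.8 and 81.1 in KD1 and 50.6, 53.0 and 51.4 in KD2, so in both lines KD1 lay above the controls and KD2 below them. The KD2 arm was lower than KD1 by 0.74 ± 0.05 (adjusted p = 1.4e-07) and 0.63 ± 0.03 (adjusted p = 1.5e-07). UQCRC2 was lower in KD2 than in KD1 in every line, by 0.41 ± 0.05 in A2058, 0.48 ± 0.11 in A375 and 0.24 ± 0.04 in SKMEL2 (adjusted p = 1.5e-05, 0.0052 and 0.00074), and in A375 all KD2 libraries (15.5, 17.1 and 18.2 FPKM) were below all controls (21.0, 22.2 and 21.7). The A375 difference between hairpins was -0.49 without the 4 libraries with high FPKM sums, which left a single library in each arm. UQCR11 fell in SKMEL2 by 0.46 ± 0.06 (adjusted p = 7.7e-05) and in A2058 by 0.23 ± 0.06 (adjusted p = 0.0062), the latter at adjusted p = 0.097 in a fit over all 27 libraries, with 15.1, 14.6 and 14.8 FPKM in SKMEL2 KD2 against 24.5, 25.0 and 22.2 in the controls. UQCC3, a factor that stabilises newly made cytochrome b, fell in A2058 by 0.54 ± 0.09 (adjusted p = 0.00038), its FPKM being 5.58, 5.18 and 7.35 in the controls, 4.62, 5.21 and 4.61 in KD1 and 3.30, 3.11 and 3.24 in KD2. In SKMEL2 UQCC3 fell by 0.16 ± 0.06 (adjusted p = 0.048), a call lost when any library but KD2 replicate 2 was left out, at adjusted p = 0.054 to 0.16. UQCRH and UQCRB were not called in any line in the mean of both arms.

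UQCC1, the partner of UQCC2 in cytochrome b assembly, went opposite ways with the 2 hairpins in all 3 lines. In A2058 its FPKM was 7.05, 6.89 and 6.77 in the controls, 4.51, 4.33 and 3.93 in KD1 and 11.7, 13.1 and 11.8 in KD2. In A375 it was 6.67, 6.17 and 6.99 in the controls, 4.80, 4.34 and 4.16 in KD1 and 13.4, 13.1 and 10.98 in KD2, and in SKMEL2 10.2, 9.56 and 9.29 in the controls, 6.87, 7.77 and 7.08 in KD1 and 14.3, 14.8 and 14.7 in KD2. In each line every KD1 library lay below and every KD2 library above every control. The KD1 arm fell by 0.64 ± 0.06, 0.53 ± 0.12 and 0.40 ± 0.05 (adjusted p = 6.2e-06, 0.0051 and 0.00011) in A2058, A375 and SKMEL2. The KD2 arm rose by 0.78 ± 0.06, 0.87 ± 0.12 and 0.57 ± 0.05 (adjusted p = 1.6e-06, 0.00062 and 1.3e-05). The direct difference of KD2 from KD1 was 1.42 ± 0.06 (adjusted p = 1.5e-08) in A2058, 1.39 ± 0.12 (adjusted p = 2.1e-05) in A375 and 0.97 ± 0.05 (adjusted p = 2.9e-07) in SKMEL2. Over all genes, 0.265% fell in KD1 and rose in KD2 in all 3 lines and 0.501% did the reverse; no other member did either. The knockdown effect on UQCC1 averages 2 opposite changes and is not called in any single line. Its mean over lines was 0.11 ± 0.04 (adjusted p = 0.018), and 0.09 (adjusted p = 0.085) in a limma-voom fit on recovered reads. Without the 4 libraries with high FPKM sums that mean was 0.07. The authors' deposited tables did not call UQCC1 either (adjusted p = 0.72, 0.59 and 0.78 in A2058, A375 and SKMEL2).

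An shRNA can lower transcripts whose 3' UTR matches its seed, and the sequences of these hairpins were not stated. For each arm the 7-base word was taken whose holders, members left out, stood lowest in that arm over the 3 lines after correction for 3' UTR length. The words were thus picked on these libraries and their values are a description; the sites are shown because UQCC1 holds the KD1 word. GENCODE release 44 on GRCh38 gave a 3' UTR for all 36. The control arm gave GAAGAGC, KD1 gave AACCAGA and KD2 gave CAGCTCC. The median change of genes with AACCAGA less that of genes without it was -0.13, -0.26 and -0.10 in KD1 of A2058, A375 and SKMEL2, and 0.02, -0.18 and 0.01 in KD2. For CAGCTCC the differences were -0.18, -0.07 and -0.12 in KD2, and 0.03, 0.15 and 0.03 in KD1. For GAAGAGC they were 0.15, 0.12 and 0.13 in KD1 and 0.16, 0.09 and 0.10 in KD2. A positive value means that its holders stood lower in the controls. The word of the control arm thus stood out by amounts like those of the hairpin words. GAAGAGC was in 3 of the 36 members (SDHAF1, UQCRB and ATP5F1A), AACCAGA in 2 and CAGCTCC in 4. Of the 9593 genes compared, 11.4%, 13.1% and 16.7% held these words in the same order. Of the 36 members, 8 held at least 1 of the 3 words and 28 held none, among them ATP5MC2, ATP5IF1, SDHC, ATP5F1B and UQCC2. The capitals mark the word, whose position is given.
UQCC1, KD1 word (chr20:35302668-35302674, minus strand): tatttacataAACCAGAgctgagccag
UQCRFS1, KD1 word (chr19:29206606-29206612, minus strand): gatggtgtggAACCAGAcgcagagcac
UQCR11, KD2 word (chr19:1597959-1597965, minus strand): ggcgtcctttCAGCTCCagaatgttgc
SDHAF2, KD2 word (chr11:61446471-61446477, plus strand): gccctccctgCAGCTCCccgccctcag
ATP5F1D, KD2 word (chr19:1244503-1244509, plus strand): tgggcccagcCAGCTCCtggggtcccg
The 2 genes with the KD1 word differed, since UQCC1 fell in KD1 in every line, and UQCRFS1 rose in KD1 in SKMEL2 by 0.14 ± 0.04 (adjusted p = 0.015) and was not called in KD1 elsewhere. Of the genes with the KD2 word, UQCR11 and SDHAF2 were lower in KD2 than in KD1 in A2058, by 0.48 ± 0.07 and 1.05 ± 0.12 (adjusted p = 0.00013 and 1.9e-05), and UQCR11 was lower in SKMEL2 too, by 0.41 ± 0.07 (adjusted p = 0.00034). ATP5F1D and UQCRB, whose site is not shown, were higher in KD2 than in KD1 in SKMEL2, by 0.16 ± 0.05 (adjusted p = 0.012) and 0.25 ± 0.07 (adjusted p = 0.012). None of the 4 was called between hairpins in A375. Whether a match bears on a level was not tested.

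The hairpins differed for 25 of the 36 members in A2058, 8 in A375 and 18 in SKMEL2, no more often than among all genes, of which 72.3%, 38.1% and 68.5% differed. KD2 was above KD1 for 3 members and below it for 22 in A2058, beside 31.6% and 40.7% of all genes. In A375 the counts were 6 and 2, beside 16.9% and 21.2%, and in SKMEL2 6 and 12, beside 33.3% and 35.2%. Members called with both hairpins in the same direction numbered 3 rising and 5 falling in A2058 (19.3% and 17.7% of all genes), 8 rising and none falling in A375 (12.9% and 9.38%), and 2 rising and 10 falling in SKMEL2 (17.5% and 15.9%). The A375 counts were unstable. Its 8 members called between hairpins became 2 to 17 when 1 library was left out, 19 after quantile normalization, 18 in a fit over all 27 libraries and 3 with no filter. Its 8 called with both hairpins became 2 to 14 when 1 library was left out, 4 after quantile normalization and 16 in the 27-library fit. Members called in opposite directions numbered 6, 1 and 2 (15.5%, 3.35% and 12.4% of all genes). The KD1 and KD2 effects share their control libraries, so their counts are not independent. ATP5IF1, the small protein that blocks the reverse reaction of the ATP synthase, was one of the opposite pairs in A2058, with FPKM of 26.4, 23.5 and 27.9 in the controls, 38.8, 39.8 and 38.4 in KD1 and 17.2, 16.7 and 15.0 in KD2. KD2 was lower than KD1 for ATP5IF1 in every line, by 1.24 ± 0.07, 0.43 ± 0.14 and 0.39 ± 0.06 (adjusted p = 5.7e-08, 0.032 and 0.00034).

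**Figure D4:**
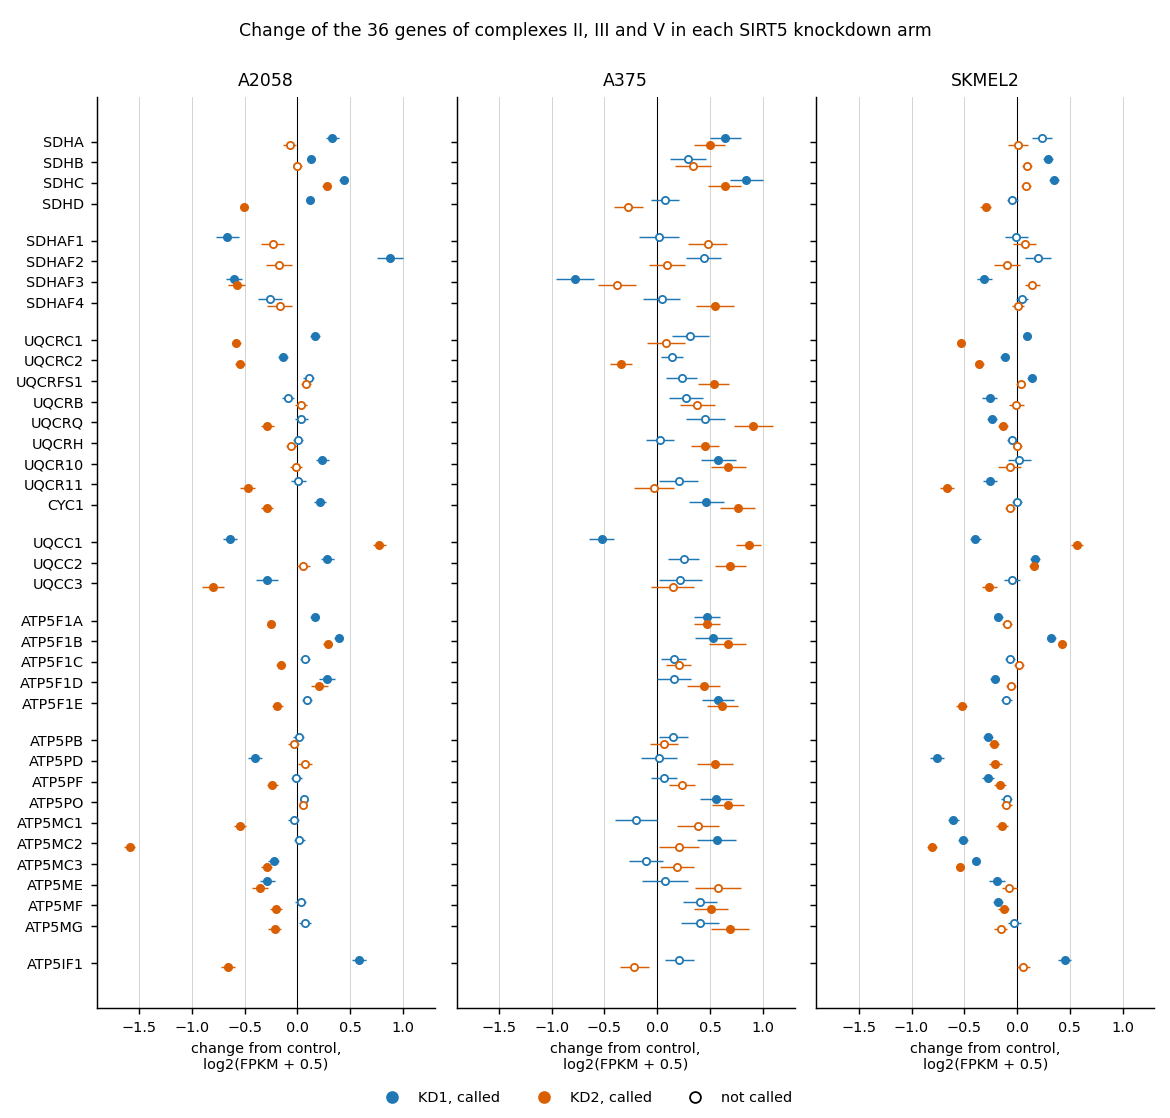
Change of each of the 36 genes from control in KD1 (blue) and KD2 (orange), on log2(FPKM + 0.5), in A2058, A375 and SKMEL2, ordered by complex and role; points are limma estimates with their SE, filled where the adjusted p is below 0.05. Most A375 points lie to the right of 0, the stalk and membrane genes of complex V lie to the left in SKMEL2, and UQCC1 splits by hairpin in each line.

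In the F1 head of the ATP synthase, 2 of 5 subunits rose in A2058 and none fell, 3 rose in A375, and in SKMEL2 1 rose and 3 fell, beside the shares of all genes given above (34.6% and 34.7%, 26.2% and 21.7%, and 32.9% and 32.4% rising and falling). After quantile normalization 2 of the 5 rose and 3 fell in A2058, and 1 rose in A375. ATP5F1A, the alpha subunit, had A375 FPKM of 42.3, 39.9 and 47.6 in the controls, 60.8, 60.6 and 58.3 in KD1 and 59.0, 68.7 and 52.9 in KD2, above the controls in every knockdown library. It rose there by 0.47 ± 0.11 (adjusted p = 0.0058), though quantile normalization gave 0.18 (adjusted p = 0.092), and fell in SKMEL2 by 0.14 ± 0.04 (adjusted p = 0.011), a call lost without control replicate 1 (-0.11, adjusted p = 0.054). In A2058 ATP5F1A rose in KD1 by 0.16 ± 0.04 (adjusted p = 0.0042) and fell in KD2 by 0.25 ± 0.04 (adjusted p = 0.00024). ATP5F1E, the epsilon subunit, differed between lines (adjusted p = 4.9e-06). Its FPKM in A375 was 75.6, 70.4 and 80.9 in the controls, 109, 102 and 128 in KD1 and 99.1, 141 and 112 in KD2, and in SKMEL2 57.3, 55.2 and 51.2 in the controls, 53.4, 50.0 and 49.0 in KD1 and 39.2, 37.3 and 36.7 in KD2, where KD2 lay below the controls and KD1 overlapped them. ATP5F1E rose in A375 by 0.59 ± 0.13 (adjusted p = 0.0047), a call lost under quantile normalization (0.26, adjusted p = 0.078), and fell in SKMEL2 by 0.31 ± 0.04 (adjusted p = 0.00017). The table also lists the near-identical copy ATP5F1EP2, so reads may have been split. ATP5F1D rose in A2058 by 0.24 ± 0.07 (adjusted p = 0.0085) and fell in SKMEL2 by 0.13 ± 0.04 (adjusted p = 0.013), the latter lost without control replicate 2 (-0.12, adjusted p = 0.060). ATP5F1C, the gamma subunit of the central shaft, was not called in any line in the mean of both arms.

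Of the 10 stalk and membrane subunits of complex V, 6 fell in A2058 and 7 in SKMEL2 with none rising. Beside them, 34.7% and 32.4% of all genes fell and 34.6% and 32.9% rose. In A375, 3 of the 10 rose with none falling, beside 26.2% and 21.7% of all genes. The medians of the 10 were -0.14, -0.23 and 0.30 in that order. After quantile normalization 9 fell in A2058 with a median of -0.27, and the A375 median was 0.05. With the length trend removed 1 rose and 4 fell in A2058, and the A375 median was 0.16. ATP5PO, the subunit that joins the stalk to the F1 head, rose in A375 by 0.61 ± 0.13 (adjusted p = 0.0044), from 11.7, 10.8 and 13.6 FPKM to 17.2, 17.3 and 19.0 in KD1 and 21.2, 22.1 and 15.3 in KD2, and changed by 0.06 ± 0.03 and -0.10 ± 0.04 in A2058 and SKMEL2, neither called. ATP5PD, a stalk subunit, fell in SKMEL2 by 0.48 ± 0.05 (adjusted p = 4.1e-05), its FPKM being 39.3, 44.1 and 38.1 in the controls, 24.4, 23.8 and 22.9 in KD1 and 36.7, 32.5 and 35.9 in KD2, so that KD1 was lowest. In A2058, too, KD1 was the lower arm for ATP5PD, which there was 0.47 ± 0.06 (adjusted p = 5.5e-05) higher in KD2, and where it fell by 0.17 ± 0.05 (adjusted p = 0.021), a call lost without control replicate 2 (-0.15, adjusted p = 0.069) or 3 (-0.11, adjusted p = 0.11). ATP5PB fell in SKMEL2 by 0.25 ± 0.04 (adjusted p = 0.00052), from 75.8, 74.6 and 70.7 FPKM to 64.5, 58.6 and 59.8 in KD1 and 66.2, 61.3 and 62.1 in KD2, both below the controls. ATP5PF, the coupling factor of the stalk, fell in A2058 by 0.12 ± 0.04 (adjusted p = 0.024) and in SKMEL2 by 0.22 ± 0.05 (adjusted p = 0.0039). ATP5ME, a small membrane subunit, fell in A2058 by 0.32 ± 0.06 (adjusted p = 0.00097) with both arms below the controls. ATP5MF and ATP5MG, also small membrane subunits, rose in A375 by 0.46 ± 0.14 and 0.55 ± 0.16 (adjusted p = 0.023 and 0.016).

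The proton-carrying ring of the ATP synthase is built from subunit c, which the genes ATP5MC1, ATP5MC2 and ATP5MC3 encode with the same mature protein and different import sequences. ATP5MC2, on chromosome 12 (53632726 to 53677408, minus strand, GRCh38), had the steepest drop of any member in any arm. In A2058 its FPKM was 47.5, 50.7 and 51.2 in the controls, 49.1, 49.5 and 52.4 in KD1 and 16.5, 17.04 and 15.2 in KD2, so that KD1 overlapped the controls and KD2 lay far below. The KD2 change was -1.59 ± 0.05 (adjusted p = 4.1e-09) and the KD1 change 0.02 ± 0.05 (adjusted p = 0.80). In SKMEL2 the values were 63.1, 60.1 and 58.1 in the controls, 44.8, 39.7 and 42.6 in KD1 and 34.8, 34.4 and 34.0 in KD2, below the controls in both arms, and ATP5MC2 fell by 0.66 ± 0.04 (adjusted p = 1e-06). In A375 they were 66.1, 59.5 and 75.6 in the controls, 96.6, 87.0 and 114 in KD1 and 96.2, 80.7 and 58.7 in KD2, with KD1 above the controls by 0.56 ± 0.19 (adjusted p = 0.032). ATP5MC3 had A2058 FPKM of 45.7, 45.3 and 46.3 in the controls, 39.9, 37.9 and 39.7 in KD1 and 37.6, 40.1 and 34.4 in KD2, and SKMEL2 FPKM of 28.4, 28.1 and 27.5 in the controls, 22.04, 20.8 and 21.1 in KD1 and 19.4, 18.6 and 19.2 in KD2. ATP5MC3 fell in A2058 by 0.26 ± 0.05 (adjusted p = 0.00051) and in SKMEL2 by 0.47 ± 0.03 (adjusted p = 1.2e-06), with both arms below the controls in both lines. For ATP5MC1 the FPKM in A2058 was 42.0, 44.001 and 43.2 in the controls, 43.0, 40.2 and 42.8 in KD1 and 31.7, 29.4 and 27.1 in KD2, so that KD2 alone cleared the controls. In SKMEL2 it was 27.5, 29.3 and 28.9 in the controls, 18.1, 18.2 and 19.6 in KD1 and 23.9, 27.2 and 26.3 in KD2, with both arms below. ATP5MC1 fell in A2058 by 0.29 ± 0.05 (adjusted p = 0.00032), where KD1 alone gave -0.04 ± 0.06, and in SKMEL2 by 0.37 ± 0.05 (adjusted p = 8e-05), where KD1 gave -0.60 ± 0.05 and KD2 -0.14 ± 0.05.

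The balance of the 3 genes within a library is not altered by a factor that scales the whole library; it was not computed after quantile normalization or removal of the length trend. In A2058, ATP5MC2 made up 35.9% ± 0.677 of their summed FPKM in the controls, 38.3% ± 0.945 in KD1 and 19.6% ± 0.293 in KD2 (SD, n = 3). In A375 its share was 53.6% ± 0.647 in the controls, 65.6% ± 0.837 in KD1 and 52.0% ± 0.692 in KD2, and in SKMEL2 51.7% ± 1.20, 51.4% ± 1.16 and 43.4% ± 0.983. The share was thus lowest in KD2 in A2058 and SKMEL2 and highest in KD1 in A375, in every library of those arms. The sum of the 3 in A2058 was 139 ± 2.95 FPKM in the controls, 131 ± 3.63 in KD1 and 83.0 ± 5.49 in KD2, and 117 ± 2.31, 82.3 ± 3.23 and 79.2 ± 1.14 in SKMEL2. In A375 it was 125 ± 13.8, 151 ± 19.3 and 151 ± 37.3, and the arms overlapped. The table also lists ATP5MC1P4, a copy of ATP5MC1 with which reads may be split.

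**Figure D5:**
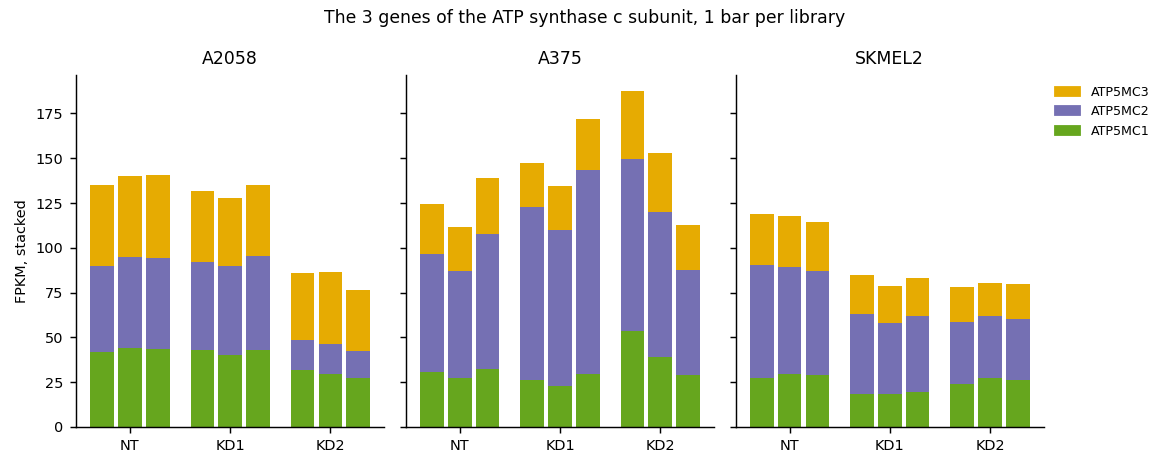
FPKM of ATP5MC1 (green), ATP5MC2 (purple) and ATP5MC3 (yellow), the 3 genes of subunit c, stacked for each library, with 1 bar per library in the control (NT), KD1 and KD2 arms of each line. The purple part shrinks in A2058 KD2, where ATP5MC2 holds 19.6% of the sum, and all 3 parts are smaller in the SKMEL2 knockdown arms.

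The mitochondrial genome encodes 1 subunit of complex III, cytochrome b (MT-CYB), and 2 of complex V (MT-ATP6 and MT-ATP8). All 3 rose in A2058 and fell in SKMEL2, and none was called in A375. In A2058, MT-CYB averaged 6105 ± 554 FPKM in the controls, 7676 ± 721 in KD1 and 6617 ± 441 in KD2, against 7017 ± 296, 5026 ± 468 and 5883 ± 192 in SKMEL2. It rose by 0.22 ± 0.07 (adjusted p = 0.018) and fell by 0.37 ± 0.06 (adjusted p = 0.00071). MT-ATP6 rose by 0.15 ± 0.05 (adjusted p = 0.026) and fell by 0.52 ± 0.09 (adjusted p = 0.00053). TFAM, a factor for the transcription and packaging of mitochondrial DNA, fell in each line, by 0.74 ± 0.05 (adjusted p = 4.7e-07) in A2058, 1.26 ± 0.18 (adjusted p = 0.00057) in A375 and 0.87 ± 0.04 (adjusted p = 1.6e-07) in SKMEL2. It came from a list of 10 genes, of which 4 rose and 3 fell in A2058. Of the 9 tested in each other line, 1 rose and 2 fell in A375, and 4 rose and 3 fell in SKMEL2. Beside these and the 3 mitochondrial genes, 34.6% of all genes rose and 34.7% fell in A2058. The shares were 26.2% and 21.7% in A375 and 32.9% and 32.4% in SKMEL2.

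Genes that work beside these complexes changed as well, from lists chosen with earlier results of these data known. CYCS, the cytochrome c that carries electrons away from complex III, fell in each line, by 0.64 ± 0.05 (adjusted p = 1.2e-06), 1.05 ± 0.18 (adjusted p = 0.0013) and 0.44 ± 0.05 (adjusted p = 2.7e-05) in A2058, A375 and SKMEL2, from 66.5 ± 3.08 to 42.6 ± 2.31 FPKM in A2058 (n = 3 and 6). Among the 7 tested genes of the other list of complex III in A2058, 1 rose and 6 fell, and in SKMEL2, with 8 tested, 2 rose and 2 fell. Of all genes, 34.6% rose and 34.7% fell in A2058, 26.2% and 21.7% in A375, and 32.9% and 32.4% in SKMEL2. TMEM70, needed to assemble the ATP synthase, fell in A2058 by 0.53 ± 0.06 (adjusted p = 1.4e-05) and in A375 by 0.54 ± 0.10 (adjusted p = 0.0022). COQ9, which takes part in making ubiquinone, fell in each line, by 1.18, 0.98 and 1.05 (adjusted p = 1.1e-07, 0.00043 and 5.3e-08), within a list of 19 of which 9 fell and 7 rose in A2058, 4 fell and 4 rose in A375, and 10 fell and 3 rose in SKMEL2. SLC25A3, the phosphate carrier that supplies the ATP synthase, fell in A2058 by 0.72 ± 0.04 (adjusted p = 5.2e-08) and in SKMEL2 by 0.57 ± 0.03 (adjusted p = 9.2e-07).

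The subunits of the neighbouring complexes I and IV listed here are also nuclear genes. Of the complex I genes, 13 rose and 12 fell of 36 tested in A2058, 18 rose and 1 fell of 36 in A375, and 10 rose and 15 fell of 35 in SKMEL2, with medians of -0.04, 0.42 and -0.06. The shares of all genes rising and falling were 34.6% and 34.7% in A2058, near those of complex I, 26.2% and 21.7% in A375, and 32.9% and 32.4% in SKMEL2. Of the 11 complex IV genes, 2 rose and 6 fell in A2058, 5 rose and none fell in A375, and 1 rose and 9 fell in SKMEL2. COX7C of complex IV rose in each line, by 2.14 ± 0.04 (adjusted p = 5.5e-10), 2.47 ± 0.13 (adjusted p = 3.4e-06) and 1.81 ± 0.05 (adjusted p = 1e-08). No test of a difference between these groups and the 36 genes was made.

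In the authors' deposited tables, which set knockdown against control in each line, members passing an adjusted p of 0.05 numbered 2 rising and 2 falling in A2058, 11 and 0 in A375, 1 and 8 in SKMEL2, and 7 and 3 over all lines. The sign of the change was the same as in the present fits for 35 of 36 members in A2058 and A375, 36 in SKMEL2 and 35 over all lines, and no member was called in both with opposite signs. The authors' A2058 table did not call SDHD, UQCRC1 or ATP5MC2 (adjusted p = 0.69, 0.73 and 0.36), whose hairpins differed there and which were called here.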

How the data were processed

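The authors sequenced total RNA as 50 nt paired-end reads and, per the submitters' processing notes, checked them with FastQC (0.11.9) and MultiQC (1.9) and processed them with STAR 2.7.3a and featureCounts (Subread 2.0.0) on GENCODE release 34 of GRCh38; the authors also used Trimmomatic 0.39 and DESeq2 1.28.1, per the same notes. The strand setting of the counting and the step that made FPKM were not stated, so reads of genes that overlap on opposite strands cannot be told apart. The authors deposited FPKM of 26004 genes in 27 libraries. The authors also deposited comparison tables with a log2 fold change, a p-value, an adjusted p-value and a mean normalised signal per gene. For A375 control replicate 2 a raw file was cut short, per the labels.

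The members and gene lists were chosen with earlier results of these data known. FPKM was tested as log2(FPKM + 0.5), which understates changes of low genes, with limma 3.58.1 (R 4.3.3) and a variance trend, on genes of at least 1 FPKM in at least 3 libraries, with Benjamini-Hochberg adjustment over all genes. Each line was fitted alone with 3 arm means, the knockdown effect being the mean of KD1 and KD2 less the control. All 27 libraries with 9 group means gave the mean effect, the F-test between lines and the differences between controls. Members given by library were those called one way in each line, those of largest change per line, between hairpins and between control lines, the 5 with the smallest F-test p and the c subunit genes; others named were chosen after their values were seen. From each list the genes of largest mean change were named. Whole reads were recovered from FPKM and the deposited mean signal for 100% of values (within 0.05) and used for depth and a voom fit. Same-numbered libraries correlated at -0.62 to 0.43 in A375 and at -0.07 to 0.06 elsewhere, so the numbers were not taken to pair libraries. No 2 libraries of an arm agreed within sampling noise. The fits were run on simulated reads, with changes larger than most of those called among the members. The simulation did not include the A375 shift in FPKM sums and does not bear on smaller changes. Promoters came from RefSeq and 3' UTRs from GENCODE release 44, matched by symbol and gene ID.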

Additional observations from a re-analysis of the deposited data

Results flagged for a closer look

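SDHA in the 6 A375 knockdown libraries had a single low library, KD2 replicate 3 at 3.29 FPKM against a median of 4.48, with a gap of 0.667 of the range. It was the only such library among 72 groups examined, and chance gives about 1 in 20. KD2 replicate 3 was also the A375 knockdown library with the lowest FPKM sum, 307910, and the part of that sum was not tested.

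The knockdown effect differed between the lines for 20 of the 24 members given by library, by limma's F-test over 27 libraries, adjusted over all genes. Of these, UQCRQ, ATP5F1A, ATP5F1E, ATP5PO and ATP5MC2 were chosen by their small p in this test, and some others by their changes in single lines. The count of 20 is therefore partly fixed by selection. Without such selection the test passed for 29 of the 36 members, beside 61.1% of all genes. In complex II the adjusted p was 0.0039 for SDHA, 0.0028 for SDHC, 0.012 for SDHAF3 and 0.026 for SDHAF4. In complex III it was 0.019 for UQCRC1, 0.027 for UQCRC2, 4.8e-05 for UQCRQ, 0.0030 for UQCR10, 0.019 for UQCR11, 0.037 for UQCC2 and 0.0072 for UQCC3. In complex V it was 1.6e-05 for ATP5F1A, 0.016 for ATP5F1D, 4.9e-06 for ATP5F1E, 0.018 for ATP5PB, 0.00044 for ATP5PD, 6.6e-05 for ATP5PO, 0.036 for ATP5MC1, 2.0e-06 for ATP5MC2 and 0.0053 for ATP5MC3.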

How the results depend on the processing

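The 24 members given by library had 96 called changes. A fit over all 27 libraries lost 18 of the 96 calls, and the other settings applied to all libraries lost at most 7 each, beside 2 that changed sign. Leaving out 1 library was run on the 33 to 49 calls it touches and lost at most 6 each. Leaving out the 4 A375 libraries of high FPKM sum left a single library in KD1 and in KD2 of A375. How many of the 96 calls this setting kept is therefore not given. The A375 member counts of this setting, listed further on, rest on the spread of the control libraries alone. Those counts cannot be read as calls lost or kept. The sign was kept wherever a value was computed, except that quantile normalization turned SDHC between hairpins in A2058 to 0.034 and the mean effect of ATP5F1A to -0.046. The replicate numbers did not pair libraries; with a replicate block the members called between hairpins in A375 went from 8 to 2 and those called with both hairpins from 8 to 5. A fit over all 27 libraries called 24 in A375 and 11 in SKMEL2 for the knockdown effect, 18 between hairpins in A375 and 11 in SKMEL2, and 3, 16 and 4 with both hairpins in A2058, A375 and SKMEL2. Among all genes the knockdown calls likewise went from 6054 to 9378 in A375 and from 9070 to 6659 in SKMEL2. Quantile normalization called 19 between hairpins in A375, and 15 and 4 with both hairpins in A2058 and A375. No filter on low values called 3 between hairpins in A375, and no variance trend 7 with both hairpins in SKMEL2. Without the 4 A375 libraries of high FPKM sum, a setting chosen after seeing the data as was the length trend, A375 gave 8 for the knockdown effect, 1 between hairpins and 0 with both. Leaving out 1 library at a time gave 15 to 20 members for the knockdown effect in A2058, 9 to 24 in A375, 18 to 24 in SKMEL2, 19 to 23 for the mean and 21 to 32 for a difference between lines. It gave 24 to 26, 2 to 17 and 16 to 21 between hairpins, and 6 to 9, 2 to 14 and 6 to 13 with both, in A2058, A375 and SKMEL2. Control differences numbered 27 to 29 (A375 and A2058), 27 to 30 (SKMEL2 and A2058) and 22 to 26 (SKMEL2 and A375). The cause of these shifts was not tested. A375 was the shallowest line.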
